A study of Mus musculus with 18 samples.

Results

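The genes described here are 39 genes that blood or lymphatic endothelial cells are known for, read in lung and lung tumors of mice. They were chosen by name, as the genes of a written list whose probe sets carry no other gene symbol, with the probe set of the highest mean standing for a gene. All 39 were on the array, among 18193 genes measured. Of these, 21 are shared by most endothelial cells, here called pan-endothelial, 8 are known from capillaries, 4 from arteries, 3 from veins and 3 from lymphatic vessels.

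Endothelial cells line every blood and lymphatic vessel and are joined by VE-cadherin (Cdh5) and PECAM-1 (Pecam1). Their identity and quiescence depend on ETS and SOX transcription factors, on the angiopoietin receptor Tek and on BMP signalling through Acvrl1 and its co-receptor Eng. The lung holds a very dense capillary bed, in which mouse studies separate aerocytes, thin cells at the gas exchange surface that express Car4, Ednrb and Apln, from general capillary cells that express Gpihbp1, Plvap and Aplnr.

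The study used B6C3F1/N mice, a hybrid strain common in long-term toxicology, aged 5 to 6 weeks at the start. They breathed air with antimony trioxide at 0, 3, 10 or 30 mg/m3 in whole body chambers, with 60 males and 60 females at each level, for 6 hours and 12 minutes on 5 days of each week and for as long as 105 weeks. The 3 groups were lung of vehicle controls, alveolar/bronchiolar tumors that arose spontaneously, and tumors of antimony-treated mice, here called treated tumors, with 6 arrays each. Tumors were cut out of the surrounding lung before freezing, and the control samples are described as lung, so that the comparisons set dissected tumor against lung tissue. Which animal, sex or exposure level an array came from is not given, and p-values therefore measure the spread between these samples, which may be partly technical. Expression was read on Affymetrix mouse arrays as log2 RMA values, in which 1 unit is a doubling, and a level on this scale can be compared between arrays but not between probe sets. In such bulk samples, fewer endothelial cells and less RNA per endothelial cell cannot be told apart.

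Control 5, spontaneous 5 and spontaneous 6 stood apart and were left out, which left 5 control, 4 spontaneous tumor and 6 treated tumor arrays. The median Pearson correlation of these 3 arrays with the others, across all probe sets but array controls, was 0.299 to 0.473, against 0.919 to 0.973 for the 15 kept. On them the median endothelial gene stood at -3.46, -3.48 and -3.74 log2 units from the mean of the kept controls, so that the left-out control lay below every kept tumor array. Among the 15, the 3-prime minus 5-prime difference of the Gapdh control probe sets, which rises as RNA is degraded or incompletely copied, lay between 1.84 and 2.21 for control lung, between 1.12 and 1.40 for spontaneous tumors and between 1.09 and 1.97 for treated tumors. The same difference for actin was -0.236 to -0.174, -0.377 to -0.233 and -0.330 to -0.167, and the bioB hybridization spike read 10.7 to 11.2, 10.2 to 10.5 and 10.2 to 10.6. Of these measures, bioB separated control from tumor arrays, and the Gapdh difference separated control from spontaneous tumor arrays.

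Most endothelial genes were lower in tumors of both kinds than in control lung, and none was called higher. In spontaneous tumors 28 of 39 fell, 0 rose and 11 did not pass the test (limma, Benjamini-Hochberg adjusted p under 0.05 over all 18193 genes). Over all genes 12.9% were called lower and 20.1% higher in this comparison. The median difference of the 39 was -1.95 log2 units, in a range of -5.85 to 1.64, beside 0.12 for all genes. For 27 of the 39, every spontaneous tumor array lay below every control array, which held for 11.4% of all genes.

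In treated tumors 33 of 39 fell, 0 rose and 6 did not pass, where 15% of all genes were called lower and 23.8% higher. The median difference was -2.04, in a range of -5.74 to 0.92, beside 0.09 for all genes. For 24 of the 39, every treated tumor array lay below every control array, against 10.1% of all genes. Both comparisons used the same control arrays, so the second is no independent repeat of the first.

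With all 18 arrays in the fit, 14 endothelial genes were called lower in spontaneous tumors (all genes 3.19%) and 12 in treated tumors (all genes 4.44%). The medians were then -1.86 and -1.52. Those called in both comparisons were Tek, Ramp2, Calcrl, Erg, Thbd, Icam2, Clec14a, Tal1, Tmem100, Sox17, Gja4 and Mmrn1, and S1pr1 and Lyve1 were also called in spontaneous tumors. Every other endothelial gene called lower over the 15 arrays, Cdh5 and Pecam1 among them, was not called over the 18. With all 18 arrays weighted by their quality, 29 (all genes 14.5%) and 33 (all genes 16.5%) were called lower.

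With the Gapdh 3-prime minus 5-prime difference as a covariate over the 15 arrays, 17 (all genes 3.28%) and 21 (all genes 4.64%) were called lower. The call was then lost in both comparisons for Eng, Robo4, Sox18, Gpihbp1, Ednrb, Gja5 and Lyve1. It was lost in spontaneous tumors alone for Pecam1 (at -1.69), Tie1 (at -1.51), Ecscr (at -1.17) and Tal1 (at -1.31), and in treated tumors alone for Esam (at -0.52), Emcn (at -0.60), Plvap, Car4 (at -0.47) and Aplnr. Gpihbp1 stood at -2.28 and -1.84 and Lyve1 at -2.69 and -2.27 in that fit. The part of RNA quality in these results was not tested.

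**Figure D1:**
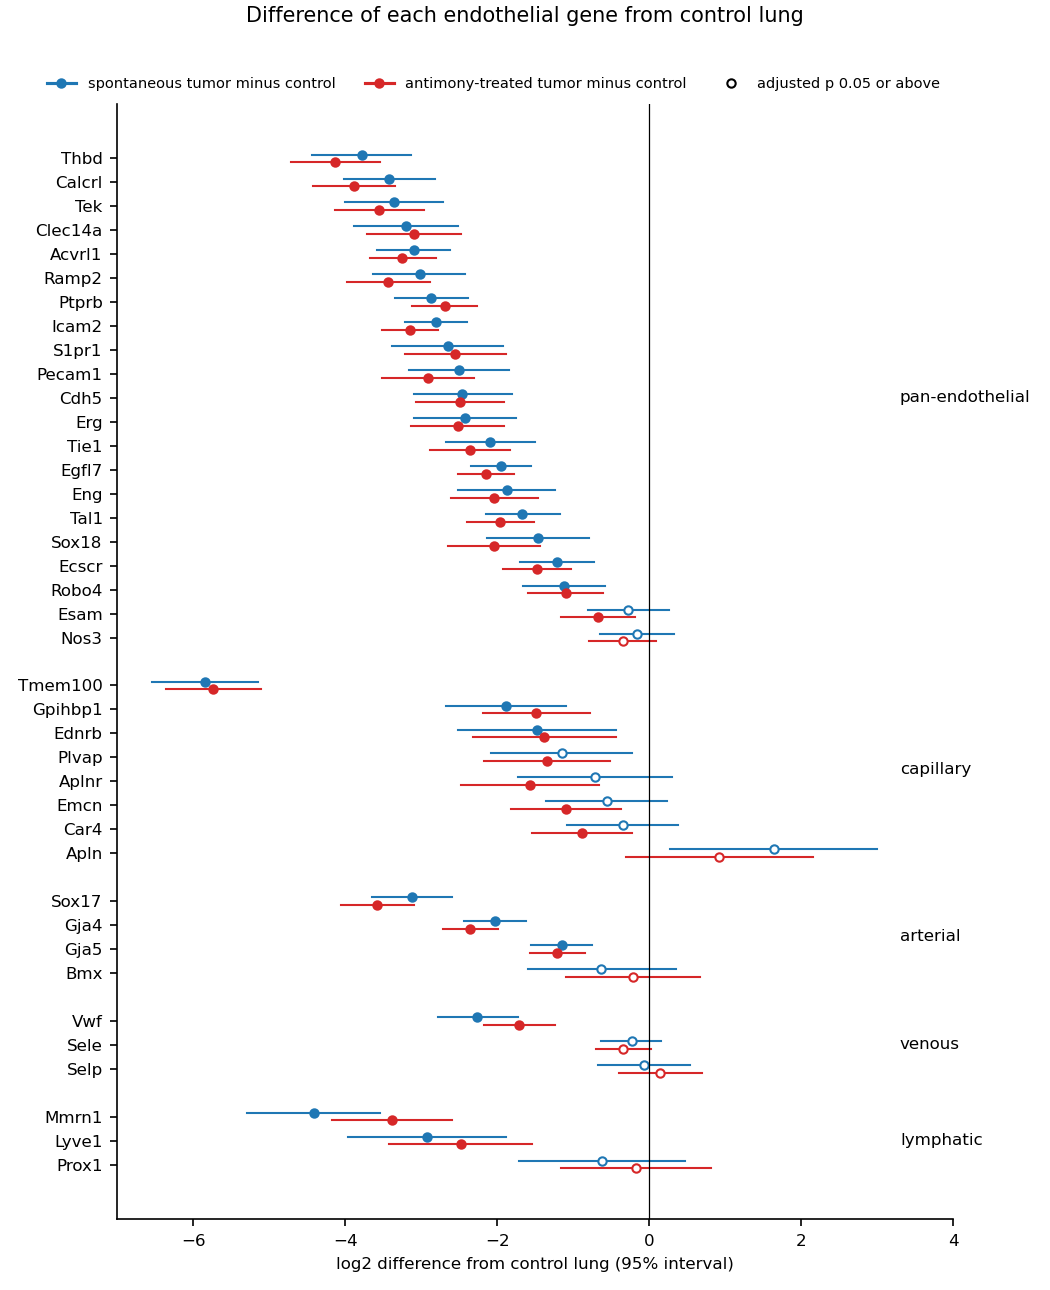
Difference of each of the 39 endothelial genes from control lung in log2 units, for spontaneous tumors (blue) and treated tumors (red), grouped by vessel class; lines are 95% intervals from limma over 15 arrays and open circles have an adjusted p of 0.05 or above. Tmem100 stands furthest to the left at -5.85 and -5.74, and Apln furthest to the right at 1.64 and 0.92 with both circles open.

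Among the pan-endothelial genes, 19 of 21 fell in spontaneous and 20 of 21 in treated tumors, with medians of -2.46 and -2.52. The junction and adhesion genes Cdh5, Pecam1 and Icam2 stood well apart between control lung and tumor. Cdh5 read 12.18, 12.00, 12.60, 12.02 and 12.00 on the control arrays, 9.18, 10.37, 9.63 and 9.63 on the spontaneous tumor arrays, and 9.18 to 10.80 with a median of 9.44 on the treated tumor arrays. The groups did not overlap, and the highest tumor array, treated 3, still lay below the lowest control. Cdh5 fell by 2.46 ± 0.30 (SE, adjusted p = 2.43e-05) in spontaneous tumors and by 2.49 ± 0.27 (adjusted p = 5.62e-06) in treated tumors, or 5.49-fold and 5.62-fold. Over all 18 arrays Cdh5 differed by -2.26 and -1.52 and was not called (limma adjusted p = 0.208 and 0.390).

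Pecam1 behaved similarly, at 11.93, 11.76, 12.30, 11.51 and 11.54 in control lung, 8.86, 9.97, 9.30 and 9.09 in spontaneous tumors, and 8.04 to 9.64 with a median of 8.83 in treated tumors. No tumor array reached the control range. The falls were 2.50 ± 0.31 and 2.91 ± 0.28 log2 units, and over all 18 arrays the limma adjusted p was 0.0751 and 0.0911. Icam2, a ligand for leukocyte integrins, had tight groups, with control arrays at 10.75, 10.95, 11.18, 10.29 and 10.88, spontaneous tumors at 7.65, 8.44, 8.12 and 7.79, and treated tumors at 7.49 to 8.08 with a median of 7.54. It fell by 2.81 ± 0.19 and 3.15 ± 0.18, and over all 18 arrays it was still called in both comparisons, with adjusted p = 0.000275 and 9.33e-05 by limma.

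Other surface molecules fell by differing amounts. Clec14a, a C-type lectin of endothelial cells, fell by 3.20 ± 0.32 in spontaneous and 3.10 ± 0.29 in treated tumors. Ecscr, a receptor in endothelial migration, fell by 1.21 and 1.47, and Robo4, a roundabout receptor that stabilizes vessels, by 1.12 and 1.10. Robo4 differed by -0.74 and -0.75 with the Gapdh covariate and by -0.60 and -0.69 over all 18 arrays, and Ecscr by -0.93 over all 18 in treated tumors. Esam, an adhesion molecule of endothelial tight junctions, had the smallest difference of these surface molecules. Its difference was -0.28 ± 0.25 in spontaneous tumors, with a 95% interval of -0.81 to 0.26 and adjusted p = 0.430. In treated tumors Esam fell by 0.68 ± 0.23 (adjusted p = 0.0277), with arrays that overlapped the controls, and this call was lost when control 1, control 2, control 3, treated 2, treated 5 or treated 6 was left out (differences of -0.66 to -0.56). The Esam difference was -0.11 over all 18 arrays.

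Tek, Tie1, Ptprb, Acvrl1 and Eng were called lower in both comparisons. Tek, which binds angiopoietins, read 11.75, 11.10, 12.14, 11.56 and 11.20 in control lung, 7.94, 8.58, 8.16 and 8.07 in spontaneous tumors, and 7.05 to 8.79 with a median of 8.05 in treated tumors. The gap between tumor and control arrays exceeded the range within any group. The falls were 3.36 ± 0.30 and 3.55 ± 0.27 log2 units, or 10.3-fold and 11.7-fold, and with the Gapdh covariate the spontaneous tumor difference was -2.09, still called. Its partner Tie1 fell by 2.09 and 2.36, and Ptprb, the phosphatase that acts on Tek and VE-cadherin, by 2.87 and 2.69. Acvrl1, a receptor for BMP ligands of the circulation, fell by 3.10 ± 0.23 and 3.25 ± 0.20, with limma adjusted p = 0.0846 and 0.0612 over all 18 arrays. Eng, its co-receptor, fell by 1.87 ± 0.30 and 2.04 ± 0.27. With the Gapdh covariate Eng differed by -1.08 and -1.33 and was not called, and over all 18 arrays its limma adjusted p was 0.0969 and 0.134.

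Calcrl and Ramp2, which together form the receptor for the vasodilator adrenomedullin, both fell. Calcrl stood at 12.60, 12.38, 12.74, 12.32 and 12.17 in control lung, 8.69, 9.33, 9.49 and 8.58 in spontaneous tumors, and 7.97 to 9.53 with a median of 8.46 in treated tumors. Its groups lay far apart. It fell by 3.42 ± 0.28 (10.7-fold) in spontaneous and fell by 3.89 ± 0.25 (14.8-fold) in treated tumors. Ramp2 fell by 3.02 ± 0.28 and fell by 3.44 ± 0.26. S1pr1, the receptor for sphingosine phosphate that tightens junctions, fell by 2.65 ± 0.34 and 2.55 ± 0.31.

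Thbd, thrombomodulin, which turns thrombin toward protein C activation, had the largest fall of the pan-endothelial genes. Control arrays read 12.47, 11.86, 12.62, 11.92 and 11.91, spontaneous tumors 8.11, 8.93, 8.84 and 7.62, and treated tumors 7.56 to 8.78 with a median of 7.83. Here too the tumor arrays lay far below the lowest control. The falls were 3.78 ± 0.31 (13.8-fold) and 4.13 ± 0.28 (17.5-fold).

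The transcription factor genes Erg, Sox18 and Tal1 were called lower in both comparisons. Erg, an ETS factor that maintains endothelial identity, fell by 2.42 ± 0.32 and 2.52 ± 0.29. Sox18 fell by 1.46 and 2.04, and Tal1, a helix-loop-helix factor shared with blood progenitors, by 1.67 and 1.96. With the Gapdh covariate Sox18 differed by -0.73 and -1.39, called in neither comparison. Egfl7, a secreted endothelial protein, fell by 1.95 and 2.15. Nos3, the endothelial nitric oxide synthase, was not called, at -0.16 ± 0.23 (95% interval -0.65 to 0.33) and -0.35 ± 0.21 (-0.79 to 0.09). Its control arrays read 6.31 to 6.98. No detection call was used here, so whether a probe set of low value lay above background is not known.

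**Figure D2:**
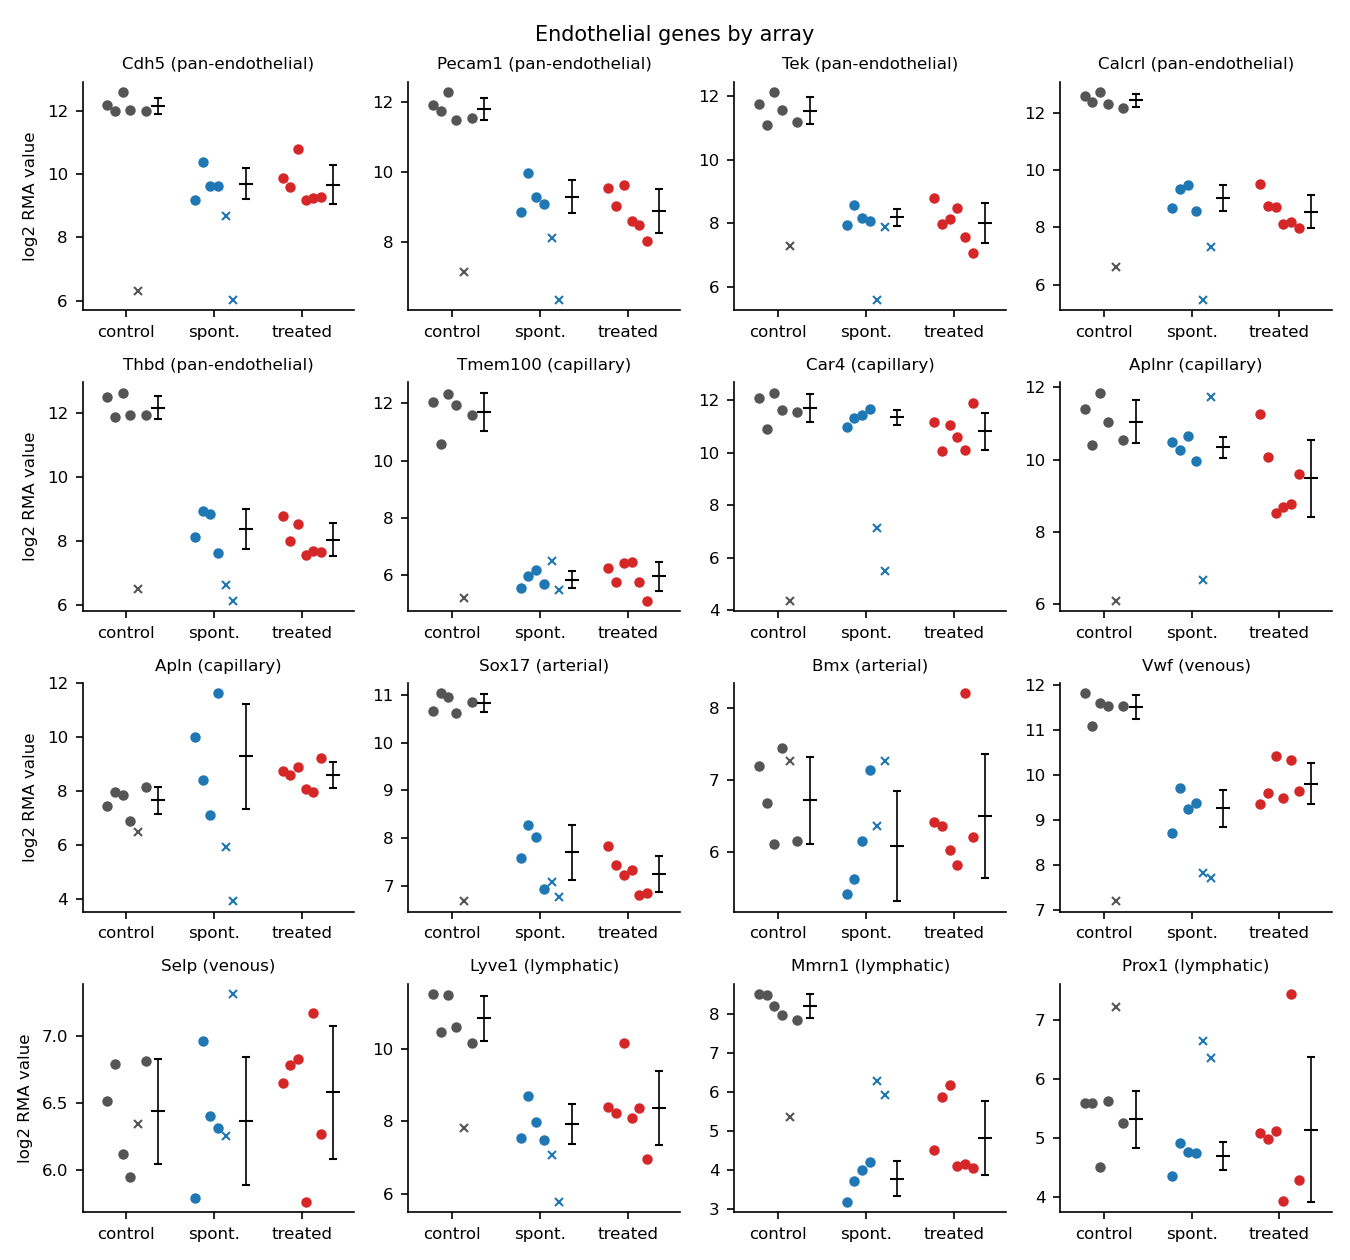
Log2 RMA value on every array for 16 of the endothelial genes, with control lung in grey, spontaneous tumors in blue and treated tumors in red; filled circles are the 15 arrays analysed, crosses the 3 left out, and the bar is the mean ± SD of the filled circles. Among the 15 arrays analysed, Cdh5, Pecam1, Tek, Calcrl, Thbd, Tmem100, Sox17, Vwf and Mmrn1 show tumor circles wholly below the control circles, whereas Bmx, Selp and Prox1 overlap, and for those 9 genes the cross of the left-out control lies below the tumor circles or among them.

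The promoters of 4 endothelial genes are shown because they set a pair whose RNA fell strongly in both tumor kinds (Calcrl and Tek) beside a pair of capillary genes that was not called in spontaneous tumors (Emcn and Apln). The sequences are from RefSeq, mouse build GRCm38.p6, from 250 bases before to 50 after the gene start, on the strand of the gene. Calcrl lies at chr2:84425217-84425516 (minus strand), Tek at chr4:94739039-94739338 (plus strand), Emcn at chr3:137340828-137341127 (plus strand) and Apln at chrX:48034804-48035103 (minus strand). Capitals mark CAGGAAG, a motif that ETS factors such as ERG bind, or its reverse complement in Emcn and Apln, and in Tek AGATAAG, one form of the motif of GATA factors.
Calcrl: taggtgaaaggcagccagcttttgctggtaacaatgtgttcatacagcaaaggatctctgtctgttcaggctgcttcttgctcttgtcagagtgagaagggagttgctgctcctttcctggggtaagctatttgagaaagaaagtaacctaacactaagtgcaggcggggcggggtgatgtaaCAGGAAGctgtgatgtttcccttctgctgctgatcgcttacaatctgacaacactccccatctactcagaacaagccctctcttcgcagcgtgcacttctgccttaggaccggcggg
Tek: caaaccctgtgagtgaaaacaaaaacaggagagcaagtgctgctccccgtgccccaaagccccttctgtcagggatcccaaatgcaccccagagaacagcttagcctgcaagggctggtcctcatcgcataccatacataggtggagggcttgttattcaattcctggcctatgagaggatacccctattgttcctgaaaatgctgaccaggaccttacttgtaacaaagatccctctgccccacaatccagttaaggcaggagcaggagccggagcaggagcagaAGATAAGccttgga
Emcn: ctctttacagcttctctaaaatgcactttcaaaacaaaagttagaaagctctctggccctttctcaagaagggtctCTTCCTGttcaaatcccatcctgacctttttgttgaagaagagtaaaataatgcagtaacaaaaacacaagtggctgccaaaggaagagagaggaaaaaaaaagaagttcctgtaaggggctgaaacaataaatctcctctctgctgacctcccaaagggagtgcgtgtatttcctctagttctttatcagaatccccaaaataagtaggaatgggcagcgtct
Apln: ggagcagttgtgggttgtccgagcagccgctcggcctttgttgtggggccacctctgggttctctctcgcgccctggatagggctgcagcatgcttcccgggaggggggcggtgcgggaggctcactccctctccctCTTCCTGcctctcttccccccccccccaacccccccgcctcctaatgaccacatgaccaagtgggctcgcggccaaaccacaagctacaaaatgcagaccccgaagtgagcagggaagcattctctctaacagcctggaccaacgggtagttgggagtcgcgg

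The table held promoters for 20 of the 39 genes, in 26 entries. CAGGAAG, searched on both strands, was in 8 of these 26, of the 7 genes Apln, Calcrl, Egfl7, Emcn, Erg, Robo4 and Sele, and in 13.3% of all 32851 promoters. The ETS variant CCGGAAG was in 1 (Car4) and in 8.86% of all. AGATAAG was in 2 (Erg and Tek) and in 3.04% of all, and the GATA variant CAGATAA, which can overlap AGATAAG, was in 0 and in 3.43% of all. The capitals begin at position -67 in Calcrl, 36 in Tek, -174 in Emcn and -113 in Apln, with the first base of the gene counted as 0. The ETS motif was thus present both in genes that fell strongly, such as Calcrl, and in Sele and Apln, which were not called. Such matches describe letters and not bound sites.

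Capillary genes diverged most among themselves. In spontaneous tumors 3 of 8 fell (Tmem100, Gpihbp1 and Ednrb) and in treated tumors 7 of 8, all but Apln, with medians of -0.93 and -1.37. Tmem100, a membrane protein induced by BMP signalling through Acvrl1 in endothelium, had the largest difference of all 39 genes. It read 12.05, 10.59, 12.31, 11.95 and 11.58 in control lung, 5.54, 5.99, 6.19 and 5.68 in spontaneous tumors, and 5.12 to 6.45 with a median of 6.01 in treated tumors. No tumor array came within 4 log2 units of a control array. Tmem100 fell by 5.85 ± 0.33 (adjusted p = 2.99e-08) and 5.74 ± 0.29 (adjusted p = 8.94e-09). These are differences of measured values, and whether the tumor values lay above background is not known. Over all 18 arrays the differences were -4.72 and -4.65, both still called.

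The genes of general capillary cells gave smaller differences. Gpihbp1, which carries lipoprotein lipase to the vessel lumen, fell by 1.88 ± 0.37 and 1.49 ± 0.33, with the second at -0.81 over all 18 arrays. Plvap, which forms the diaphragms of fenestrae and caveolae, had a difference of -1.15 ± 0.43 in spontaneous tumors, just outside the threshold at adjusted p = 0.0521. Plvap fell by 1.35 ± 0.39 in treated tumors, a difference that was -0.04 with the Gapdh covariate and -0.87 over all 18 arrays, called in neither.

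Aplnr, the apelin receptor, read 11.41, 10.41, 11.85, 11.04 and 10.54 in control lung and 10.48, 10.27, 10.64 and 9.97 in spontaneous tumors, which overlapped. Treated tumors ranged from 8.51 to 11.26 with a median of 9.18, and only treated 1 lay within the control range. The difference was -0.71 ± 0.47 (adjusted p = 0.269) in spontaneous tumors, and Aplnr fell by 1.57 ± 0.43 (adjusted p = 0.00874) in treated tumors. With the Gapdh covariate the second value turned to 0.19, and over all 18 arrays it was -0.74.

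Of the aerocyte genes, Car4, a membrane-bound carbonic anhydrase, gave small differences. Car4 read 12.07, 10.92, 12.29, 11.64 and 11.57 in control lung, 10.99, 11.31, 11.42 and 11.67 in spontaneous tumors, and 10.08 to 11.88 with a median of 10.84 in treated tumors. Every tumor group overlapped the controls. The difference was -0.35 ± 0.34 (95% interval -1.08 to 0.38) in spontaneous tumors. In treated tumors Car4 fell by 0.88 ± 0.31 (adjusted p = 0.0349), a call lost when control 1, control 3, control 4, treated 2, treated 4 or treated 5 was left out, and the difference was 0.34 over all 18 arrays.

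Ednrb, an endothelin receptor, fell by 1.48 ± 0.49 (adjusted p = 0.0293) and 1.38 ± 0.44 (adjusted p = 0.0213). Its arrays overlapped, since control 2 read 7.78 and the other controls 9.16 to 10.37. Ednrb was not called in spontaneous tumors when control 1, control 3, control 4 or spontaneous 1 was left out, nor in treated tumors when control 1, control 3 or control 4 was (differences of -1.40 to -1.12). With the Gapdh covariate Ednrb differed by -0.24 and -0.28, called in neither comparison, and over all 18 arrays by -0.75 in treated tumors.

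Apln, the apelin peptide, was the one gene of the 39 with a positive difference in spontaneous tumors. It read 7.44, 7.96, 7.87, 6.90 and 8.14 in control lung, 10.02, 8.42, 7.13 and 11.62 in spontaneous tumors, and 7.96 to 9.23 with a median of 8.66 in treated tumors. Spontaneous 1, 2 and 4 stood above every control, while spontaneous 3 lay within the control range. The difference was 1.64 ± 0.64 (95% interval 0.27 to 3.00, adjusted p = 0.0624) and 0.92 ± 0.58 (-0.31 to 2.16, adjusted p = 0.230), so neither was called. Without spontaneous 2 or without spontaneous 3, Apln was called higher in spontaneous tumors, at 1.93 and 2.36. Without spontaneous 4, the highest array, the difference was 0.86 and was not called.

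Emcn, a sialomucin of capillaries and veins, completed the class. Its difference was -0.56 ± 0.38 in spontaneous tumors (95% interval -1.36 to 0.24), and it fell by 1.10 ± 0.34 in treated tumors (adjusted p = 0.0183), a call lost without control 2, at -0.86, and over all 18 arrays, at -0.43. Control 2 had the highest Emcn value of the 15 arrays (10.98) but the lowest control values of Tmem100, Plvap, Aplnr, Car4 and Ednrb.

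Of the arterial genes 3 of 4 fell in both comparisons, with medians of -1.59 and -1.78. Sox17, a transcription factor of arterial endothelium, read 10.66, 11.03, 10.96, 10.61 and 10.86 in control lung, 7.58, 8.27, 8.02 and 6.94 in spontaneous tumors, and 6.81 to 7.83 with a median of 7.28 in treated tumors. The groups did not overlap. It fell by 3.12 ± 0.25 (8.71-fold) in spontaneous and fell by 3.58 ± 0.22 (11.9-fold) in treated tumors. Of the connexins of arterial gap junctions, Gja4 differed by -2.03 ± 0.19 and -2.36 ± 0.17 and Gja5 by -1.15 ± 0.19 and -1.21 ± 0.17, all called lower. Gja5 differed by -0.63 and -0.74 with the Gapdh covariate and by -0.70 over all 18 arrays in treated tumors, called in none of these. Bmx, a tyrosine kinase of arterial endothelium, was not called, at -0.63 ± 0.46 (95% interval -1.60 to 0.35) and -0.21 ± 0.41 (-1.09 to 0.67). Its control arrays spread from 6.12 to 7.44.

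Among the venous genes only Vwf, the clotting protein that tethers platelets, fell, so the count was 1 of 3 in both comparisons. It read 11.82, 11.10, 11.61, 11.55 and 11.53 in control lung, 8.71, 9.71, 9.26 and 9.38 in spontaneous tumors, and 9.36 to 10.43 with a median of 9.62 in treated tumors. All tumor arrays lay below all controls, and the falls were 2.26 ± 0.25 and 1.71 ± 0.22. Over all 18 arrays Vwf differed by -2.03 and -0.99 and was not called (limma adjusted p = 0.0823 and 0.443). The selectins that capture leukocytes on inflamed vessels had intervals that included 0, for Selp -0.67 to 0.54 and -0.40 to 0.69, and for Sele -0.63 to 0.16 and -0.70 to 0.02. In control lung Selp read 5.95 to 6.81 and Sele 5.31 to 5.94.

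Of the lymphatic genes 2 of 3 fell in both comparisons, with medians of -2.92 and -2.48. Lyve1, a hyaluronan receptor of lymphatic vessels that some macrophages also carry, read 11.51, 10.46, 11.50, 10.60 and 10.17 in control lung, 7.53, 8.70, 7.97 and 7.49 in spontaneous tumors, and 6.96 to 10.17 with a median of 8.30 in treated tumors. Treated 3 reached the lowest control, and no other tumor array did. It fell by 2.92 ± 0.49 and 2.48 ± 0.44.

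Mmrn1, a multimerin of lymphatic endothelium and platelets, read 8.50, 8.49, 8.20, 7.98 and 7.83 in control lung, 3.19, 3.73, 4.01 and 4.22 in spontaneous tumors, and 4.07 to 6.17 with a median of 4.35 in treated tumors. No tumor array reached the controls. It fell by 4.41 ± 0.41 in spontaneous and fell by 3.38 ± 0.37 in treated tumors, again with no detection call for the low tumor values, and a second probe set of the gene fell by 0.57 and 0.59. Prox1, the factor that specifies lymphatic identity, was not called, at -0.62 ± 0.51 (95% interval -1.71 to 0.47) and -0.18 ± 0.46 (-1.16 to 0.81). Its control arrays read 4.50 to 5.62.

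**Figure D3:**
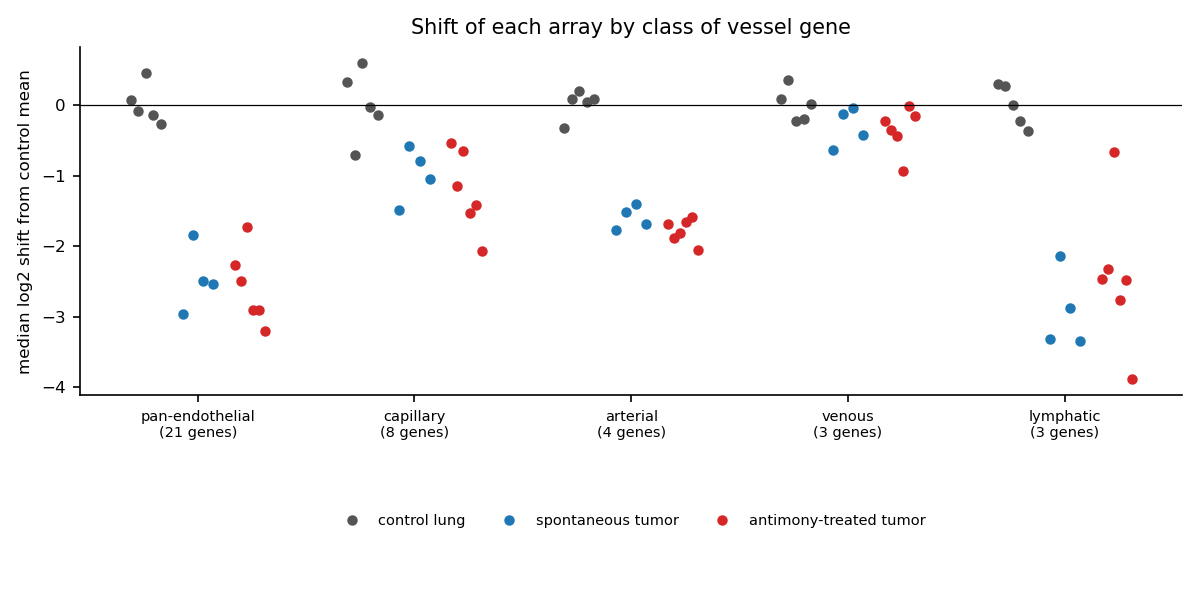
Median shift of each of the 15 arrays from the control mean, in log2 units, over the genes of each vessel class; each point is 1 array. Pan-endothelial and lymphatic genes show the lowest tumor arrays (down to -3.21 and -3.89), arterial genes lie between -2.06 and -1.40, capillary genes between -2.07 and -0.54, and venous genes between -0.94 and -0.01. The venous class has 3 genes, of which Vwf alone was called lower and the others read low in control lung. The lymphatic class also has 3 genes, and on most tumor arrays its median is the shift of Lyve1.

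By array, the pan-endothelial shift was -0.27 to 0.46 in control lung, -2.96 to -1.84 in spontaneous tumors and -3.21 to -1.73 in treated tumors. The arterial shift was tight in tumors, at -1.77 to -1.40 and -2.06 to -1.59. Capillary genes shifted by -1.49 to -0.58 and -2.07 to -0.54, and the lowest control array, control 2 at -0.71, overlapped them. Venous genes overlapped as well, at -0.64 to -0.04 and -0.94 to -0.01 against -0.22 to 0.35 in control lung. This venous shift is a median over 3 genes, 1 of which, Vwf, was called lower without overlap of its arrays. The others, Selp and Sele, read 5.95 to 6.81 and 5.31 to 5.94 in control lung, low values that carry no detection call. Lymphatic genes shifted by -3.35 to -2.14 in spontaneous and -3.89 to -0.67 in treated tumors. This lymphatic shift is likewise a median over 3 genes, and on most tumor arrays the middle gene was Lyve1. Lyve1 is also carried by some macrophages and lost its call with the Gapdh covariate. Prox1 read only 4.50 to 5.62 in control lung, again with no detection call.

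Whether genes differed by another amount than Cdh5 was tested on each gene's log2 value minus that of Cdh5 on the same array. Such a ratio shows unequal change and not which of the genes changed. In spontaneous tumors 6 of the other 38 genes lay below Cdh5, where 0.797% of all genes did. These were Tmem100 (-3.39 ± 0.38), Mmrn1 (-1.96 ± 0.38), Thbd (-1.33 ± 0.36), Calcrl (-0.96 ± 0.37), Tek (-0.90 ± 0.38) and Clec14a (-0.74 ± 0.35). A further 17 lay above Cdh5, which 95.9% of all genes did because Cdh5 itself fell.

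The 17 were 6 pan-endothelial genes (Esam, Robo4, Sox18, Ecscr, Nos3 and Tal1), 6 capillary genes (Emcn, Plvap, Car4, Ednrb, Aplnr and Apln), the arterial Gja5 and Bmx, the venous Selp and Sele, and the lymphatic Prox1. Car4 stood 2.10 ± 0.40, Emcn 1.90 ± 0.37 and Apln 4.09 ± 0.53 log2 units above Cdh5. Of the capillary genes 6 of 8 thus lay above Cdh5, as did 95.9% of all genes, while Tmem100 lay below it. Nos3, Bmx, Selp, Sele and Prox1 had control means of only 5.32 to 6.72, with no detection call. Whether genes of such low value could fall as far as Cdh5 on this scale is not known.

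In treated tumors 9 of 38 lay below Cdh5 (all genes 0.901%) and 17 above (all genes 96.1%). Below were Tmem100 (-3.24 ± 0.34), Thbd (-1.64 ± 0.32), Calcrl (-1.40 ± 0.33), Sox17 (-1.09 ± 0.34), Tek (-1.06 ± 0.34), Ramp2 (-0.95 ± 0.30), Mmrn1 (-0.88 ± 0.34), Acvrl1 (-0.75 ± 0.32) and Icam2 (-0.66 ± 0.32).

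Alternative fits were counted over the 37 genes other than Cdh5 and Pecam1. With Pecam1 in place of Cdh5, 5 lay below (all genes 0.742%) and 17 above (all genes 96.0%) in spontaneous tumors. In treated tumors 3 lay below (all genes 0.638%) and 21 above (all genes 97.3%). Over all 18 arrays, relative to Cdh5, 1 of the same 37 lay below (all genes 0.0825%) and 2 above (all genes 32.4%) in spontaneous tumors. In treated tumors 2 lay below (all genes 0.253%) and 1 above (all genes 21.0%) over the 18 arrays.

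Treated and spontaneous tumors were compared directly to ask whether exposure went with another level of endothelial RNA. By limma 0 of 39 genes were called, and the difference had an unadjusted p under 0.05 for 2 (Mmrn1 and Vwf). The exact permutation test gave 0 with an unadjusted p under 0.05. Over all genes 0.0220% were called lower (4 genes) and 0.0330% higher (6 genes). Differences of the 39 ranged from -0.86 (Aplnr) to 1.04 (Mmrn1), with a median of -0.19 beside -0.02 for all genes.

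The direct comparison does not show that both kinds of tumor had equal endothelial RNA. For 23 of the 39 genes the 95% interval lay within 1 log2 unit of 0, and for the others a larger difference was possible. Cdh5 differed by -0.03 (-0.65 to 0.59) and Pecam1 by -0.41 (-1.05 to 0.23). Mmrn1 was higher in treated tumors by 1.04 (0.19 to 1.88, adjusted p = 0.471) and Vwf by 0.55 (0.04 to 1.05, adjusted p = 0.540), and the array values of both overlapped. The low Mmrn1 values of spontaneous tumors carry no detection call, so the size of that difference is uncertain. Relative to Cdh5, 0 of 38 genes were called. Over all 18 arrays the median difference was 0.26 and 0 were called.

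Other endothelial genes, a list of 40 of which 38 were measured, fell in most cases. In spontaneous tumors 32 fell and 0 rose, with a median of -1.79, and in treated tumors 34 fell and 0 rose, with a median of -1.83. Of all genes, 12.9% were called lower and 20.1% higher in spontaneous tumors, and 15% lower and 23.8% higher in treated tumors. Edn1, the endothelin ligand, fell by 3.12 ± 0.29 and 3.16 ± 0.26, and Gata2, a transcription factor of endothelium and blood progenitors, by 2.91 ± 0.29 and 3.18 ± 0.26. Bmp6, a BMP ligand, fell by 4.40 ± 0.42 and 3.92 ± 0.38. Between treated and spontaneous tumors 0 of the 38 were called.

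Markers of other cells moved with the endothelial genes in part. The all-gene shares to set beside their counts were 12.9% lower and 20.1% higher in spontaneous tumors. In treated tumors these shares were 15% lower and 23.8% higher. Smooth muscle genes fell in 6 of 6 cases in both comparisons, with medians of -2.80 and -2.81, and their median shift by array lay between -0.99 and 0.65 in control lung, -3.25 and -2.39 in spontaneous and -3.18 and -2.21 in treated tumors. Acta2 and Tagln, components of the contractile apparatus, fell by 1.78 and 2.24 in spontaneous tumors. Of 8 fibroblast genes 5 fell in each comparison, with medians of -1.91 and -1.81, and by array they shifted by -0.33 to 0.34 in control lung, -2.50 to -1.44 in spontaneous and -2.70 to -1.16 in treated tumors. Col1a1, a collagen chain, rose in treated tumors by 0.81. Of 8 pericyte genes 2 and 4 fell, with medians of -0.60 and -0.65, and by array they shifted by -0.20 to 0.36 in control lung, -1.01 to -0.38 in spontaneous and -0.97 to -0.62 in treated tumors. Pdgfrb, the receptor that recruits pericytes to vessels, was not called, at -0.24 and -0.25.

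By their medians, blood cell, heart muscle and epithelial lists moved less or the other way. Their counts stand beside the same all-gene shares, 12.9% and 15% called lower and 20.1% and 23.8% called higher. Of 6 leukocyte genes 2 fell in each comparison, with medians of -0.28 and -0.31, and control (-0.81 to 1.07), spontaneous tumor (-0.64 to 0.03) and treated tumor arrays (-0.93 to 0.56) overlapped. Of 5 platelet and megakaryocyte genes 4 fell and 1 rose in each, with medians of -0.72 and -0.90. Their differences ranged from -4.29 to 1.67 in spontaneous and from -4.88 to 2.05 in treated tumors. The 1 that rose, at the upper end of both ranges, was Pf4, a platelet chemokine. Of 4 erythroid genes 1 fell (Alas2) and 1 rose (Klf1) in each, and of 6 genes of the heart muscle that sheathes pulmonary veins 2 fell in each. The heart muscle medians were -0.11 and -0.01, but the genes ranged from -6.06 to 0.33 in spontaneous and from -6.41 to 0.16 in treated tumors. That median therefore hides large falls of single genes. The alveolar epithelial list also holds genes of epithelial cells in general. Its genes rose in part, 4 of 7 in spontaneous and 5 of 7 in treated tumors, with medians of 0.50 and 0.67. By median shift, every tumor array (0.33 to 1.28) lay above every control array (-0.17 to 0.30). Sftpc, the surfactant gene that marks alveolar type 2 cells, differed by -0.01 and 0.02, and Sftpb rose by 0.50 and 0.55. The part of these cells in the endothelial results was not tested.

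**Figure D4:**
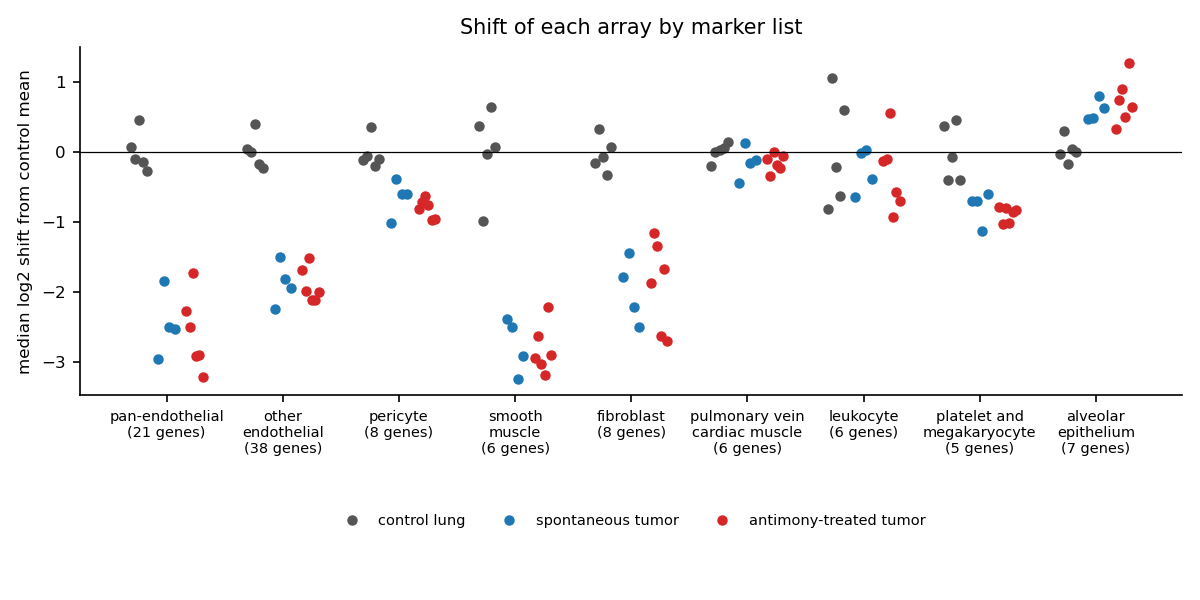
Median shift of each of the 15 arrays from the control mean, in log2 units, over marker lists of other cells beside the pan-endothelial genes; each point is 1 array. Smooth muscle arrays of tumors lie between -3.25 and -2.21, as low as the pan-endothelial genes, while the alveolar epithelial list, which includes general epithelial genes, lies at 0.33 to 1.28 in tumors.

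Several probe sets were present for 17 of the 39 genes, 63 probe sets in all for the 39. For all 17, every probe set of the gene gave the same call in both comparisons with control lung. The size could still depend on the probe set, as for Mmrn1, and for Prox1 and Selp, which were not called, probe sets differed in sign in treated tumors.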

How the data were processed

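The deposited values are log2 expression values that the authors made with RMA, per the submitters' processing notes, which corrects background, normalizes the arrays together and combines the probes of a probe set; its version is not given in the sources used here. The values were used as deposited.

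Probe sets were named from GEO's platform annotation, which can be old. Of 45101 probe sets, those with a single gene symbol (34945) were kept, and those of array controls (64), with more than 1 symbol (932) or with no symbol (9160) were not used. The probe set with the highest mean over the 15 kept arrays stood for a gene, which gave 18193 genes. At most 32 values were identical between any pair of arrays, among all probe sets but the 64 of array controls.

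Groups were compared with limma 3.58.1 in R 4.3.3, with lmFit and eBayes, 1 mean per group over 15 arrays and no block. A gene was called at a Benjamini-Hochberg adjusted p under 0.05 over all 18193 genes, and intervals are 95% intervals of the same fit. The exact 2-sided permutation test of the difference of means could give no p below 0.00794 (spontaneous against control), 0.00216 (treated against control) and 0.00476 (treated against spontaneous). The code was tested on simulated data. The authors compared control lung with each tumor group with ORIOGEN at a false discovery rate of 5%, per the labels; ORIOGEN was not run here.

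Every member could be named, and from the list of other endothelial genes up to 6 per comparison with the smallest p, and from a list of other cells up to 2 with the highest mean. The members, lists and tests were chosen with earlier results of these data known. Replicate numbers were taken from the titles. Deviations of same-numbered arrays from their group means had correlations of -0.15 to 0.30 (13 pairs, 2 over 0.1). Differently numbered arrays were not compared in this way, so whether the numbers mark pairs is not known. The numbers were not read as pairs, and a fit with a replicate block was run as an alternative. The Gapdh covariate was added as an alternative after the data were seen. The number of arrays limits the precision, and the median standard error of a log2 difference over all genes was 0.17, 0.15 and 0.16 in the 3 comparisons.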

Additional observations from a re-analysis of the deposited data

Results flagged for a closer look

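In 4 of 117 combinations of a gene and a group, 1 array lay far from the others by Dixon's test, and chance flags about 1 in 20 groups. Tie1 read 10.49 on control 3, where the other controls read 9.63 to 9.78. Clec14a read 11.35 on the same array, where the other controls read 10.40 to 10.65. Bmx read 8.20 on treated 5, against 5.82 to 6.42 on the other treated tumor arrays. Prox1 read 7.44 on treated 5, against 3.93 to 5.11.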

How the results depend on the processing

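The count of endothelial genes called lower was 28 in spontaneous and 33 in treated tumors. Over all 18 arrays it was 14 and 12, and with the Gapdh 3-prime minus 5-prime covariate 17 and 21. Leaving out each array in turn gave 27 to 29 and 30 to 33. Apln was the 1 gene called higher in spontaneous tumors over all 18 arrays with array weights, among genes at or above the median mean and with median centring, and leaving out each array gave 0 to 1. It was the 1 gene called higher in treated tumors by the exact permutation test and in the fit of only the groups compared. By the exact permutation test the call of lower was lost in treated tumors for Aplnr, Car4, Ednrb, Emcn, Esam and Plvap, and in spontaneous tumors for Ednrb. In the fit of only the groups compared, Car4 lost its call in treated tumors. In treated tumors Aplnr turned to 0.19 with the Gapdh covariate and Car4 to 0.34 over all 18 arrays; the cause was not tested. Relative to Cdh5, the counts above and below over all 18 arrays were 2 and 1 in spontaneous (17 and 6 over 15 arrays) and 1 and 2 in treated tumors (17 and 9), and with Pecam1 as the reference 17 and 5 in spontaneous and 21 and 3 in treated tumors. Leaving out each array gave 15 to 19 above and 4 to 9 below in spontaneous tumors, and 15 to 21 and 8 to 10 in treated tumors. With the replicate block, Plvap was gained at -1.35 in spontaneous tumors and Car4 lost at -0.74 in treated tumors. The block changed no other call of an endothelial gene against control lung. Between treated and spontaneous tumors 0 endothelial genes were called under every alternative run, while the count over all genes ranged from 0 to 11 lower and 0 to 18 higher as single arrays were left out. No detection call was used, so whether probe sets of low value lay above background is not known.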
